A study of Mus musculus with 31 samples.

Results

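The genes described here were 45 chaperone genes, chosen by symbol from a list and divided into 16 cytosolic chaperones and co-chaperones, 7 subunits of the cytosolic chaperonin CCT, 4 mitochondrial chaperones and 18 chaperones and stress markers of the endoplasmic reticulum (ER). All 45 had a row in both gene tables, which list 41255 gene symbols each. Cct6a, a further CCT subunit, was nearly uncounted in these tables and was not part of the list. The chaperones were measured in Ba/F3 cells, an interleukin-3 dependent mouse lymphoid line, in which the endogenous ribosomal protein gene Rpl10 was knocked down with an shRNA and human RPL10 was expressed from a retrovirus in its place. The WT clones (28, 29 and 36) carried wild-type RPL10, and the R98S clones (11, 13 and 35) carried the leukemia-associated R98S mutant, so that the knockdown and a human transgene were common to both genotypes. Each clone was grown from a single cell, and each genotype thus rests on 3 clones. The libraries of a clone carry replicate numbers 1 to 3, and the labels do not say whether these were separate cultures. The total and polysomal libraries of the same clone and number are called a culture below. Total mRNA was sequenced in 17 libraries (9 R98S and 8 WT) and polysomal RNA, from gradient fractions with more than a single ribosome per mRNA, in 14 libraries (8 R98S and 6 WT).

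Chaperones bind proteins that are not yet folded. In the cytosol, HSP70 proteins take up unfolded chains, J-domain proteins (the Dnaj genes) deliver substrates and stimulate the HSP70 ATPase, HSP110 proteins exchange the nucleotide, and HSP90 completes the folding of kinases and receptors. CCT is a closed barrel that folds actin and tubulin, and HSPD1 with its lid HSPE1 forms the barrel of the mitochondrial matrix. Heat and misfolded cytosolic protein induce many of these genes through the transcription factor HSF1, whereas misfolded protein in the ER induces BiP (Hspa5) and its partners through ATF6, IRE1 with XBP1, and PERK with ATF4.

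Reads on genes ranged from 11471068 to 22059792 per R98S and from 9338671 to 17827021 per WT library of total mRNA, and from 8831180 to 20754046 and from 13436103 to 20353757 in polysomal RNA. Mouse Rpl10, to which reads of the human transgene may also align, had 901 to 2984 normalized counts (median 1222) in R98S and 620.3 to 5715 (median 1352) in WT total mRNA. In polysomal RNA it had 666 to 2046 (median 1117) in R98S and 1099 to 5567 (median 2719) in WT. The interleukin-3 receptor genes Csf2rb and Il3ra and Ptprc (CD45) were expressed in both fractions, while the early B cell genes Vpreb1, Igll1, Ebf1 and Rag1 were near 0, so the lymphoid label rests on the receptor genes, Ptprc, Cd79a and Cd79b. The summed level of 5 macrophage markers, mostly Emr1, was 185 to 3439 normalized counts in R98S and 2637 to 6766 in WT total mRNA, and that of 5 mast cell markers, mostly Cpa3, was 194 to 2274 and 14.3 to 322. In polysomal RNA these sums did not overlap between genotypes (macrophage 317 to 1323 in R98S and 1595 to 3434 in WT, mast cell 200.3 to 1768 and 9.39 to 182). The summed lymphoid markers, mostly Csf2rb and Csf2rb2, were also apart in total mRNA (110176 to 222357 in R98S, 56843 to 102239 in WT). In polysomal RNA these lymphoid sums overlapped (44855 to 131013 in R98S, 23402 to 70390 in WT). The 5 T cell markers summed to 36.6 to 102 in R98S and 13.4 to 211 in WT total mRNA. Col1a1, Col1a2, Dcn and Pdgfra, markers of fibroblasts, summed to at most 12.0. The part of these marker differences in the chaperone results was not tested, and in bulk RNA a change in the share of cells cannot be told apart from a change per cell.

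Promoters of 5 members are shown first, with the letters of the stress elements in them. RefSeq windows of 300 bases (GRCm38.p6, 250 bases before to 50 after a transcript start) matched 36 of the 45 members. Heat shock elements were searched as GAANNTTC and TTCNNGAA and, with 3 units, as GAANNTTCNNGAA; the ER stress elements as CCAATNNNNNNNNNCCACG (ERSE), ATTGG and CCACG 1 base apart (ERSE-II) and TGACGTGG (UPRE); and the ATF4 element as TGATGCAA, all on both strands. The 3-unit heat shock letters contain those with 2 units. Dnaja1 and Hsph1 are shown because they rose in R98S total mRNA, and Hspd1 because it shares its promoter, read in the opposite direction, with Hspe1. Herpud1 was lower in R98S in both fractions, whereas Hspa5, the usual marker of ER stress, was not called. Capitals mark heat shock letters in Dnaja1, Hsph1 (both forms with 2 units) and Hspd1 (overlapping forms with 3 units), ERSE-II and ATF4 letters in Herpud1 and the ERSE in Hspa5.
Dnaja1 (chr4:40722218-40722517, plus strand): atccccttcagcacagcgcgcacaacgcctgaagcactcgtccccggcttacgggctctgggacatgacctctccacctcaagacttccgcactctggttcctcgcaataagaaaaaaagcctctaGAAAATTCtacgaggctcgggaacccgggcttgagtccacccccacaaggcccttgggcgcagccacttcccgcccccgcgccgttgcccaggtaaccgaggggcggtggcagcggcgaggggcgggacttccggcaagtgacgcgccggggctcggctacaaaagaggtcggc
Hsph1 (chr5:149636266-149636565, minus strand): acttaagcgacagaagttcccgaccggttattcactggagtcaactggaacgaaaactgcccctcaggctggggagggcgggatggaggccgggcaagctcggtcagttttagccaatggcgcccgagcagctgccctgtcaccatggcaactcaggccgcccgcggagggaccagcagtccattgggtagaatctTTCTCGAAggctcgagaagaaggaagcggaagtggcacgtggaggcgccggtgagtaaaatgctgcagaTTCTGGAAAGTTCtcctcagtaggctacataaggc
Hspd1 (chr1:55087883-55088182, minus strand): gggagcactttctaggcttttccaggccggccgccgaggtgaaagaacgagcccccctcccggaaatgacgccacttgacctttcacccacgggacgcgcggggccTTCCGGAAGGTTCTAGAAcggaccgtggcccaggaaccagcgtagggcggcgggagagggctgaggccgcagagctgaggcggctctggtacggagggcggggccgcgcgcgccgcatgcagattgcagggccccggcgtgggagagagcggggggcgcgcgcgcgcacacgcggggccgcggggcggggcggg
Herpud1 (chr8:94386179-94386478, plus strand): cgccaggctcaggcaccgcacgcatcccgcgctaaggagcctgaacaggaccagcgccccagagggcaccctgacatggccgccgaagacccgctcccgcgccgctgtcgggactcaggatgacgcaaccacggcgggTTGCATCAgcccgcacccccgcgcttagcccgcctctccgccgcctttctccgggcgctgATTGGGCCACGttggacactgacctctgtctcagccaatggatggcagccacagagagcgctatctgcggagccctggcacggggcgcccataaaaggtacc
Hspa5 (chr2:34771840-34772139, plus strand): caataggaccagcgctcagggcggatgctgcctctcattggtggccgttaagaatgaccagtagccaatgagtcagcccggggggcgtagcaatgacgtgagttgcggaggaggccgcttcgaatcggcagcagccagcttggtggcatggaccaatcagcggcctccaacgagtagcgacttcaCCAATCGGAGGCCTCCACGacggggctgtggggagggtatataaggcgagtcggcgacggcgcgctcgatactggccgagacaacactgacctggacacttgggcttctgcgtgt

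In the Hsph1 window the capitals nearest the start lie inside the transcript, from base 16 to 28, where they join into the 3-unit form on the opposite strand, and the other match lies at -54 to -47. The Dnaja1 match lies at -124 to -117 from 1 of 3 annotated starts, and the windows of the other 2 starts hold no heat shock letters. Hspd1 has a further window, at chr1:55088194-55088493, that also holds none. The ERSE-II of Herpud1 lies at -52 to -42 with the ATF4 letters at -112 to -105, and the ERSE of Hspa5 at -65 to -47. Over all 32851 windows the 3-unit heat shock letters occurred in 0.603% and among the members in Dnajb6, Hspd1, Hspe1 and Hsph1. GAANNTTC occurred in 7.86% of all windows and in 10 members, and TTCNNGAA in 8.52% and in 5 members. The ERSE occurred in 0.119% of all windows and in 7 members (Calr, Canx, Creld2, Dnajc3, Hsp90b1, Hspa5 and Pdia6), the ERSE-II in 0.0365% and in Dnajb11 and Herpud1, and the ATF4 letters in 0.895% and in Herpud1. UPRE letters, in 0.676% of windows, were found in 0 members. The windows of Dnajb1 and Xbp1 held none of these letters, which says only that they are not in these windows.

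Per length, Hsp90ab1 had the highest level of all members, with a mean of 31678 normalized counts per kb of its principal transcript in total mRNA. Calr followed with 9983 and P4hb with 6880, and at the low end were Hspa8 with 219.9 and Dnajb9 with 159 per kb. Within CCT the levels per kb lay between 2334 (Cct7) and 4756 (Cct5). The best known inducible chaperone genes were nearly uncounted. Hspa1a and Hspa1b, the heat-inducible HSP70 genes, the small heat shock protein gene Hspb1 and the HSP70 co-chaperone gene Bag3 had between 1 and 5 reads each in the 17 total mRNA libraries together, and 0 or 1 in the 14 polysomal libraries. Hspa1a and Hspa1b share 60.3% and 62.3% of their 50-base windows with other genes and Hspb1 shares 48.8% with a pseudogene, so multimapping reads could have been lost there, but Bag3 shares 0%. These 4 genes did not pass the filter of a mean of 10 normalized counts, which left 41 members to be tested in each comparison. Shared windows also make the counts of Hsp90aa1 (47.5%), Hspd1 (39.7%), Hspa8 (38.6%), Hspe1 (18.4%), Dnajb6 (17.7%) and Dnaja1 (11.9%) uncertain as levels. Hspa8, the constitutive HSP70, was listed at only 279 to 1051 normalized counts in total mRNA.

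To ask whether the mutant ribosome goes with altered chaperone mRNA levels, R98S was compared with WT in total mRNA with limma on log2(value + 1). Of the 41 members, 5 were called at an adjusted p under 0.1, a share of 12.2%, where 30.3% of all 11133 genes tested were called. Higher in R98S were Dnaja1 and Hsph1 (2 members, 14.5% of all genes), and lower were Dnajb1, Herpud1 and Xbp1 (3 members, 15.8% of all genes). The median log2 fold change of the members was 0.00, as it was over all genes. With the replicate number as a block, 12 members were called, 3 higher and 9 lower, against 38.4% of all genes. The count was 9 without the library of WT clone 29 with number 1 or of WT clone 36 with number 3, 3 without R98S clone 11 or WT clone 28, and 1 (Dnaja1) without the libraries of number 3.

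**Figure D1:**
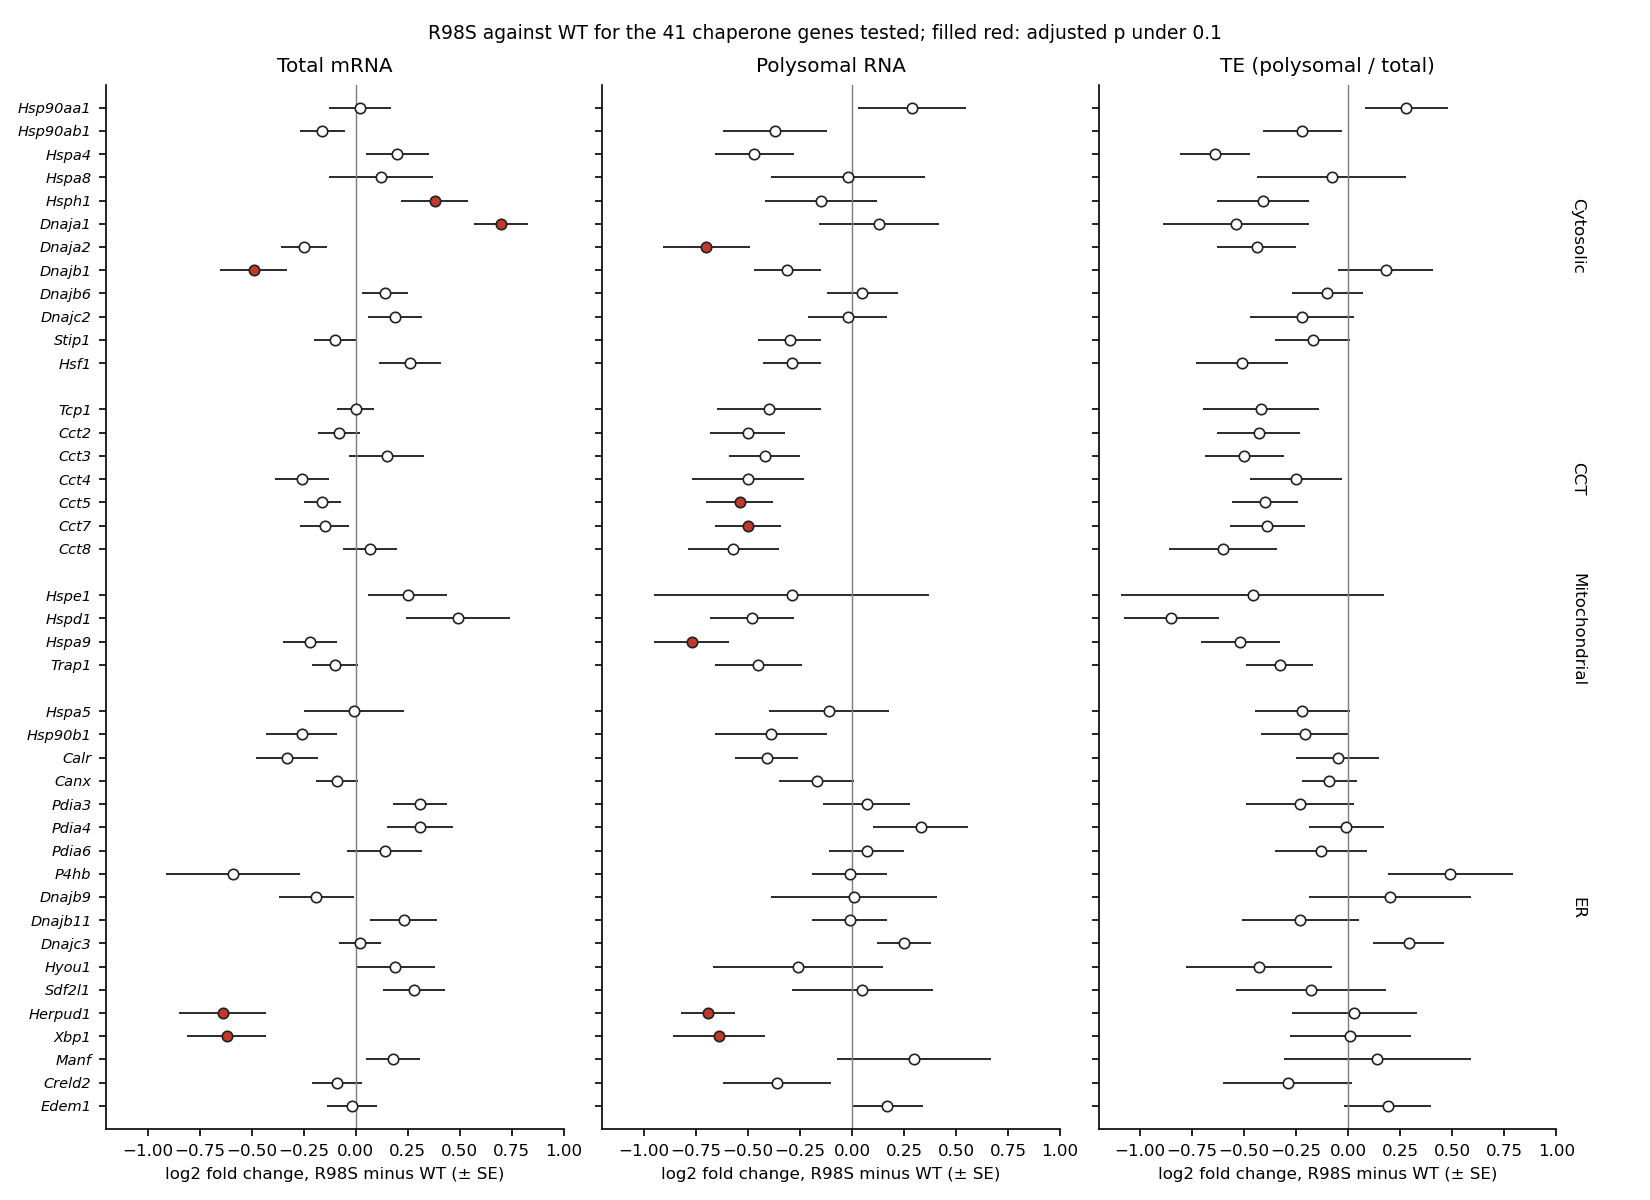
Log2 fold change of R98S against WT (x axis, ± SE) for each of the 41 members tested (y axis, by class) in total mRNA, polysomal RNA and their per-culture ratio (TE); filled points have an adjusted p under 0.1. Members scatter on both sides of 0 in total mRNA, while in polysomal RNA and TE all 7 CCT and all 4 mitochondrial members lie below 0.

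Among the cytosolic members, Dnaja1, a J-domain partner of HSP70, differed most clearly in total mRNA. Its level was 1441, 2042 and 2270 normalized counts (lowest, median and highest of 9) in R98S and 878, 1121 and 1679 (of 8) in WT. All but the lowest R98S library lay above every WT library. The log2 fold change was 0.70 ± 0.13 (SE), a 1.63-fold higher level, with an adjusted p of 6.8e-04, and it was called in all 23 alternative fits over several replicate numbers. Within the replicate numbers the difference was 0.48, 0.74 and 0.79. In polysomal RNA 1 R98S library lay above all WT libraries and 2 WT libraries below all R98S libraries, with 2364, 2668 and 6132 in R98S and 1884, 3016 and 5796 in WT, and the log2 fold change was 0.13 ± 0.29 (adjusted p = 0.871). Dnaja1 lies at chr4:40722150-40737149 (GRCm38), 9.93% of its exons overlap genes on the opposite strand, and 11.9% of its 50-base windows occur in other genes.

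Hsph1, the inducible HSP110 nucleotide exchange factor, had 1347, 1595 and 2123 normalized counts in R98S and 774, 1390 and 1653 in WT total mRNA. The groups overlapped between 1347 and 1653, and 3 R98S libraries exceeded all WT libraries. Its log2 fold change of 0.38 ± 0.16 was called narrowly (adjusted p = 0.0966), was 0.04 within number 1, and was lost when any of 11 of the 17 libraries was left out (adjusted p of up to 0.195). It passed the threshold in 11 of 23 alternative fits over several replicate numbers. Among the fits that lost it were edgeR (adjusted p = 0.121), DESeq2 (0.126) and the fit without the filter (0.146). In polysomal RNA the log2 fold change was -0.15 ± 0.27 (adjusted p = 0.828). Dnajb1, the inducible J-domain protein that works with HSPA1A, went the other way in total mRNA. It had 642, 1098 and 1378 in R98S and 1016, 1485 and 1800 in WT, and 4 R98S libraries lay below all WT libraries. The log2 fold change was -0.49 ± 0.16 (adjusted p = 0.0379), with -0.39, -0.42 and -0.56 within the replicate numbers, and was lost without R98S clone 11, WT clone 28 or number 3 (adjusted p = 0.119, 0.158 and 0.233). Polysomal Dnajb1 differed by -0.31 ± 0.16 (adjusted p = 0.297; 0.0933 with the block).

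Hsf1, which drives the cytosolic heat shock response, had 608, 680 and 801 normalized counts in R98S and 387, 593 and 837 in WT total mRNA (log2 fold change 0.26 ± 0.15, adjusted p = 0.219), and the R98S libraries fell inside the WT range. Hsp90ab1, the constitutive cytosolic HSP90, differed by -0.16 ± 0.11 in total mRNA (adjusted p = 0.288; 0.0716 with the block) and by -0.37 ± 0.25 in polysomal RNA (adjusted p = 0.457; 0.0621 with the block). Hspa8 differed by 0.12 ± 0.25 and -0.02 ± 0.37 (adjusted p = 0.776 and 0.985). In total mRNA the remaining cytosolic members Hsp90aa1, Hspa4, Dnaja2, Dnajb6, Dnajc2 and Stip1 had log2 fold changes from -0.25 (Dnaja2) to 0.20 (Hspa4), and 0 of these 6 was called. Dnaja2 was at an adjusted p of 0.107, and of 0.0391 with the block.

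**Figure D2:**
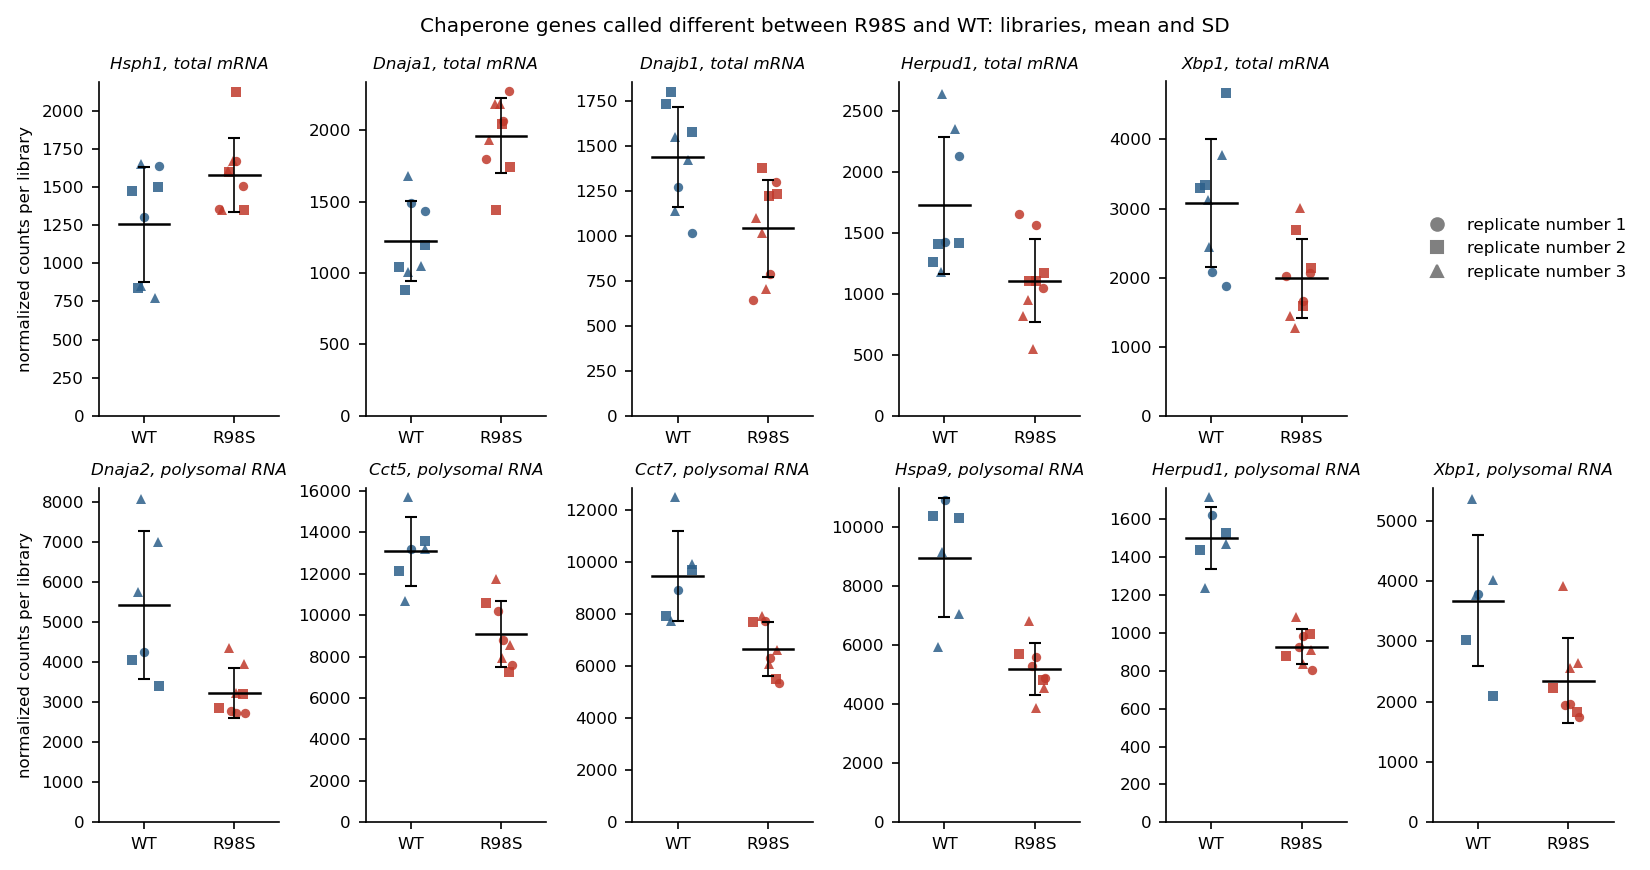
Normalized counts per library (y axis) of the members called in total mRNA (top) and polysomal RNA (bottom) in WT and R98S, with the mean (line) and SD (bar) and the replicate number as the symbol. Polysomal Herpud1 has no overlap between genotypes, and total Dnaja1 overlaps in 1 R98S library.

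Polysomal RNA was then compared to ask which chaperone mRNAs differ in the fraction engaged by ribosomes. Here 6 of the 41 members were called (14.6%, against 13.5% of all 10707 genes tested). All 6 were lower in R98S, a direction that 5.87% of all genes took, while 0 were called higher (7.66% of all genes), also by edgeR and DESeq2. At an unadjusted p under 0.05 the members split 12 lower to 0 higher (29.3% of the members, against 21.7% of all genes in either direction). The median log2 fold change was -0.29 over the members and -0.02 over all genes. Replicate numbers were unevenly filled in this fraction, with 1, 2 and 3 WT libraries against 3, 2 and 3 R98S libraries under numbers 1, 2 and 3. With the number as a block 19 members were called, 18 lower and 1 higher (Manf), against 30.9% of all genes in either direction and 15.7% lower. The count also moved with single libraries. Without the polysomal library of R98S clone 13 with number 3, 12 members were called, all lower. This library held the highest R98S value of all 6 called members and, among others, of Hsp90aa1, Hspa4, Hsph1, Cct4, Hspd1 and Dnajb11. Without WT clone 28 or WT clone 36 of number 3 the count was 3, namely Cct5, Hspa9 and Herpud1. Leaving out R98S clone 11 or R98S clone 35 gave 2, leaving out number 1 gave 1, and leaving out number 3 gave 16.

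The cytosolic member called in polysomal RNA was Dnaja2, a J-domain protein of the same type as DNAJA1. It had 2724, 3027 and 4357 normalized counts in R98S (8 libraries) and 3406, 5006 and 8070 in WT (6 libraries). The WT values spread widely, and 6 of 8 R98S libraries lay below all of them. The log2 fold change was -0.70 ± 0.21 (adjusted p = 0.0415), and it was lost without WT clone 28 or WT clone 36 of number 3 (adjusted p of up to 0.106). It passed the threshold in 15 of 22 alternative fits and did not without number 1 (adjusted p = 0.284), with clone means (0.103), without R98S clone 11, 13 or 35 or WT clone 36 (0.101 to 0.145), or without R98S clones 13 and 35 of number 2 (0.123). Hspa4, a constitutive HSP110, had 3069, 3533 and 7228 in R98S and 4305, 5285 and 6967 in WT. The library of clone 13 with number 3 lay above all WT libraries and the other 7 R98S libraries lay below them, and the log2 fold change of -0.47 ± 0.19 was not called (adjusted p = 0.158; 0.0879 with the block). Stip1, which links HSP70 to HSP90, differed by -0.30 ± 0.15 (adjusted p = 0.255; 0.0978 with the block), again with 7 of 8 R98S libraries below all WT libraries.

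The CCT subunits had similar differences in polysomal RNA. All 7 subunits had lower means in R98S, with log2 fold changes from -0.57 (Cct8) to -0.40 (Tcp1) and a median of -0.50. Cct5 had 7232, 8685 and 11726 normalized counts in R98S and 10657, 13197 and 15707 in WT, and all but 1 of the 8 R98S libraries lay below the WT range. Its log2 fold change was -0.54 ± 0.16 (adjusted p = 0.0398), and -0.58, -0.55 and -0.49 within the replicate numbers. It passed the threshold in 13 of 22 alternative fits and did not with quantile normalization (adjusted p = 0.379), with clone means (0.181), without the filter (0.123), without R98S clone 11, R98S clone 35 or WT clone 28 (0.158, 0.24 and 0.112), without number 1 or number 2 (0.287 and 0.157), or without R98S clones 13 and 35 of number 2 (0.101). Cct7 had 5339, 6474 and 7926 in R98S and 7740, 9290 and 12474 in WT, again with 7 R98S libraries below all WT libraries (log2 fold change -0.50 ± 0.16, adjusted p = 0.0573). This call passed the threshold in 11 of 22 alternative fits and was lost without any of 4 libraries, R98S clone 11 of number 1, R98S clone 35 of number 2 and WT clones 28 and 36 of number 3 (adjusted p of up to 0.136).

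The other 5 subunits were not called: Cct2 at -0.50 ± 0.18 (adjusted p = 0.1, just above the threshold), Cct3 at -0.42 ± 0.17, Cct4 at -0.50 ± 0.27, Cct8 at -0.57 ± 0.22 and Tcp1 at -0.40 ± 0.25 (adjusted p from 0.123 to 0.396 for the last 4). With the replicate number as a block 6 of the 7 were called, all but Cct4 (adjusted p = 0.151). In total mRNA the log2 fold changes of the CCT subunits ran from -0.26 (Cct4) to 0.15 (Cct3) with a median of -0.08, Tcp1 was at -0.00 ± 0.09 (adjusted p = 0.99), and 0 were called or had an unadjusted p under 0.05 by limma. With the block 1 was called (Cct5, adjusted p = 0.0907). Cct4 was called lower without R98S clone 13 (log2 fold change -0.48, adjusted p = 8.1e-04) and without that clone's library of number 1 or 3 (adjusted p = 0.0702 and 0.0442).

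Of the 4 mitochondrial members, Hspa9 was called lower in R98S polysomal RNA, and the fitted differences of the other 3 were also negative. Hspa9, the matrix HSP70 that also drives protein import, had 3882, 5098 and 6827 normalized counts in R98S and 5952, 9736 and 10915 in WT. Only the highest R98S library reached into the WT range, and the log2 fold change of -0.77 ± 0.18 was the largest of all members in this fraction (adjusted p = 0.0103). It held without any single library (adjusted p of at most 0.0282), was lost without number 1 or number 2 and with quantile normalization (adjusted p = 0.147, 0.121 and 0.176), and was -1.05, -0.98 and -0.56 within the replicate numbers. In total mRNA Hspa9 differed by -0.22 ± 0.13 (adjusted p = 0.241; 0.0557 with the block). Hspd1, the matrix HSP60, had 5667, 7671 and 13391 in R98S and 7970, 10704 and 12507 in WT polysomal RNA (log2 fold change -0.48 ± 0.20, adjusted p = 0.166; 0.077 with the block). In total mRNA its difference had the opposite sign, 0.49 ± 0.25 (adjusted p = 0.166), with 5205, 7890 and 10705 in R98S and 2458, 5082 and 11726 in WT, so that the R98S libraries lay within the WT range. Trap1, the mitochondrial HSP90, was at -0.45 ± 0.21 in polysomal RNA (adjusted p = 0.232; 0.0139 with the block) and -0.10 ± 0.11 in total mRNA. Hspe1 was at -0.29 ± 0.66 (adjusted p = 0.872), or -0.00 ± 0.17 with the block, and 0.25 ± 0.19.

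Among the 18 ER members, Herpud1 and Xbp1 were called in both fractions and 0 others in either. Herpud1, an ER membrane protein of the degradation complex, had 553, 1108 and 1655 normalized counts in R98S and 1178, 1426 and 2640 in WT total mRNA, with 7 of 9 R98S libraries below the WT range. The log2 fold change was -0.64 ± 0.21 (adjusted p = 0.031) and was larger within number 3 (-1.36) than within numbers 1 and 2 (-0.32 and -0.27). The call was lost without number 3 (adjusted p = 0.373) and without WT clone 29 (adjusted p = 0.147). In polysomal RNA all 8 R98S libraries (803, 917 and 1084) lay below all 6 WT libraries (1236, 1495 and 1717). The log2 fold change of -0.69 ± 0.13 had the smallest adjusted p of all members in this fraction (0.00179) and passed the threshold in all 22 alternative fits over several replicate numbers. Herpud1 lies at chr8:94386438-94395377, and its transcripts share no 50-base window with another gene.

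Xbp1, the transcription factor spliced by IRE1, had 1269, 2020 and 3015 normalized counts in R98S and 1875, 3208 and 4668 in WT total mRNA (log2 fold change -0.62 ± 0.19, adjusted p = 0.0248). The difference was -0.05 within number 1, where both WT libraries lay near the R98S level, and -0.83 and -0.79 within numbers 2 and 3, and the call was lost without R98S clone 11, number 2 or number 3 (adjusted p = 0.181, 0.176 and 0.173). In polysomal RNA it had 1751, 2087 and 3910 in R98S and 2100, 3779 and 5353 in WT. The log2 fold change of -0.64 ± 0.22 was close to the threshold (adjusted p = 0.0893; 0.01 with the block) and was lost when any of 10 of the 14 libraries was left out (adjusted p of up to 0.194). The tables count genes, so spliced and unspliced Xbp1 were not separated.

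The other 16 ER members were not called in either fraction. Hspa5 had 3459, 6843 and 11528 normalized counts in R98S and 3654, 7544 and 9519 in WT total mRNA, ranges that overlap in all but 1 R98S library above and 1 below (log2 fold change -0.01 ± 0.24, adjusted p = 0.982), and differed by -0.11 ± 0.29 in polysomal RNA (adjusted p = 0.891). Hsp90b1, the ER HSP90, differed by -0.26 ± 0.17 and -0.39 ± 0.27 (adjusted p = 0.293 and 0.462; 0.0714 in polysomal RNA with the block). Dnajb9, a J-domain partner of BiP, was at -0.19 ± 0.18 and 0.01 ± 0.40, Sdf2l1 at 0.28 ± 0.15 and 0.05 ± 0.34, and Edem1, which extracts misfolded glycoproteins, at -0.02 ± 0.12 and 0.17 ± 0.17 (adjusted p from 0.202 to 0.994 over these). Calr, the lumenal lectin chaperone, was lower in both fractions without being called (-0.33 ± 0.15 and -0.41 ± 0.15, adjusted p = 0.115 and 0.118; 0.0523 and 0.0124 with the block). Pdia3, the disulfide isomerase that works with it, was at 0.31 ± 0.13 in total mRNA (adjusted p = 0.105; 0.0661 with the block) and 0.07 ± 0.21 in polysomal RNA. P4hb, the most abundant disulfide isomerase here, was at -0.59 ± 0.32 in total mRNA (adjusted p = 0.189; 0.0143 with the block). Its polysomal difference was -0.01 ± 0.18 (adjusted p = 0.99). The median of the ER members was -0.02 in total mRNA and -0.01 in polysomal RNA.

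The per-culture ratio, TE, was taken as the log2 polysomal minus the log2 total value of the same culture, in 8 R98S and 6 WT cultures. None of the 41 members passed the threshold (0 called by limma, against 0.047% of the 10627 genes tested, and 0.433% with the block, where again 0 members were called). At an unadjusted p under 0.05, 10 members were lower and 0 higher in R98S, where 2.45% of all genes were lower. These were Cct2, Cct3, Cct5, Cct7, Cct8, Hspd1, Hspa9, Hspa4, Dnaja2 and Hsf1. DESeq2 on the recovered reads called 1 member, Hspa4, and edgeR 0. Fold changes of TE were negative for 32 of the 41 members, with a median of -0.22 beside 0.01 over all genes, and for all 7 CCT members (median -0.42) and all 4 mitochondrial members (median -0.49). The ER members had a median of -0.07, with 11 of 18 below 0.

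Hspd1 had the largest difference in TE. Its log2 ratio was -0.49, -0.17 and 0.55 (lowest, median and highest) in the R98S cultures and 0.08, 0.96 and 1.25 in the WT cultures, and 5 of 8 R98S cultures lay below all WT cultures. The difference was -0.85 ± 0.23 (unadjusted p = 0.00207, adjusted p = 0.441). Hspa4 had -0.72, -0.53 and -0.10 in R98S and -0.38, 0.21 and 0.45 in WT, with 4 R98S cultures below the WT range (-0.64 ± 0.17, unadjusted p = 0.00191, adjusted p = 0.441). The cultures overlapped between genotypes for both genes. Without the culture of WT clone 29 with number 1, Hspa4 and Hspd1 were called, and no other member was. Cct8 differed by -0.60 ± 0.26, Cct3 by -0.50 ± 0.19, Hspa9 by -0.52 ± 0.19 and Hsf1 by -0.51 ± 0.22 (adjusted p from 0.607 to 0.738).

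Averaged over the 7 CCT members, the log2 ratio was -0.11 to 0.64 in the R98S cultures (median 0.23) and 0.20 to 1.02 in the WT cultures (median 0.70), with the lowest WT value in clone 29 of number 1. Over the 4 mitochondrial members it was -0.47 to 0.51 (median -0.19) and -0.22 to 0.73 (median 0.55). Within a replicate number the genotypes did not overlap for either class. The CCT mean was -0.11 to 0.15 in 3 R98S cultures and 0.20 in the WT culture of number 1, 0.09 to 0.30 and 0.50 to 0.56 in number 2, and 0.32 to 0.64 and 0.83 to 1.02 in number 3. The mitochondrial mean was -0.47 to -0.38 and -0.22 in number 1, -0.27 to -0.11 and 0.33 to 0.55 in number 2, and -0.00 to 0.51 and 0.55 to 0.73 in number 3. The cytosolic mean was also apart within each number, but only narrowly in numbers 1 and 3. It was -0.17 to -0.07 in R98S and -0.05 in WT in number 1. It was -0.05 to -0.02 and 0.05 to 0.24 in number 2, and 0.02 to 0.28 and 0.31 to 0.57 in number 3. The ER mean was -0.14 to -0.10 in R98S and 0.20 in WT in number 1 and overlapped in number 2. In number 3 it was higher in the R98S cultures (0.40 to 0.45, against 0.18 to 0.29 in WT). How often other sets of genes lie apart in this way was not tested. Over all numbers together the ranges of each class overlap, and the ratio is relative to the average gene because the tables were normalized separately. Herpud1 and Xbp1, called in both fractions, had TE differences of 0.03 ± 0.30 and 0.01 ± 0.29.

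**Figure D3:**
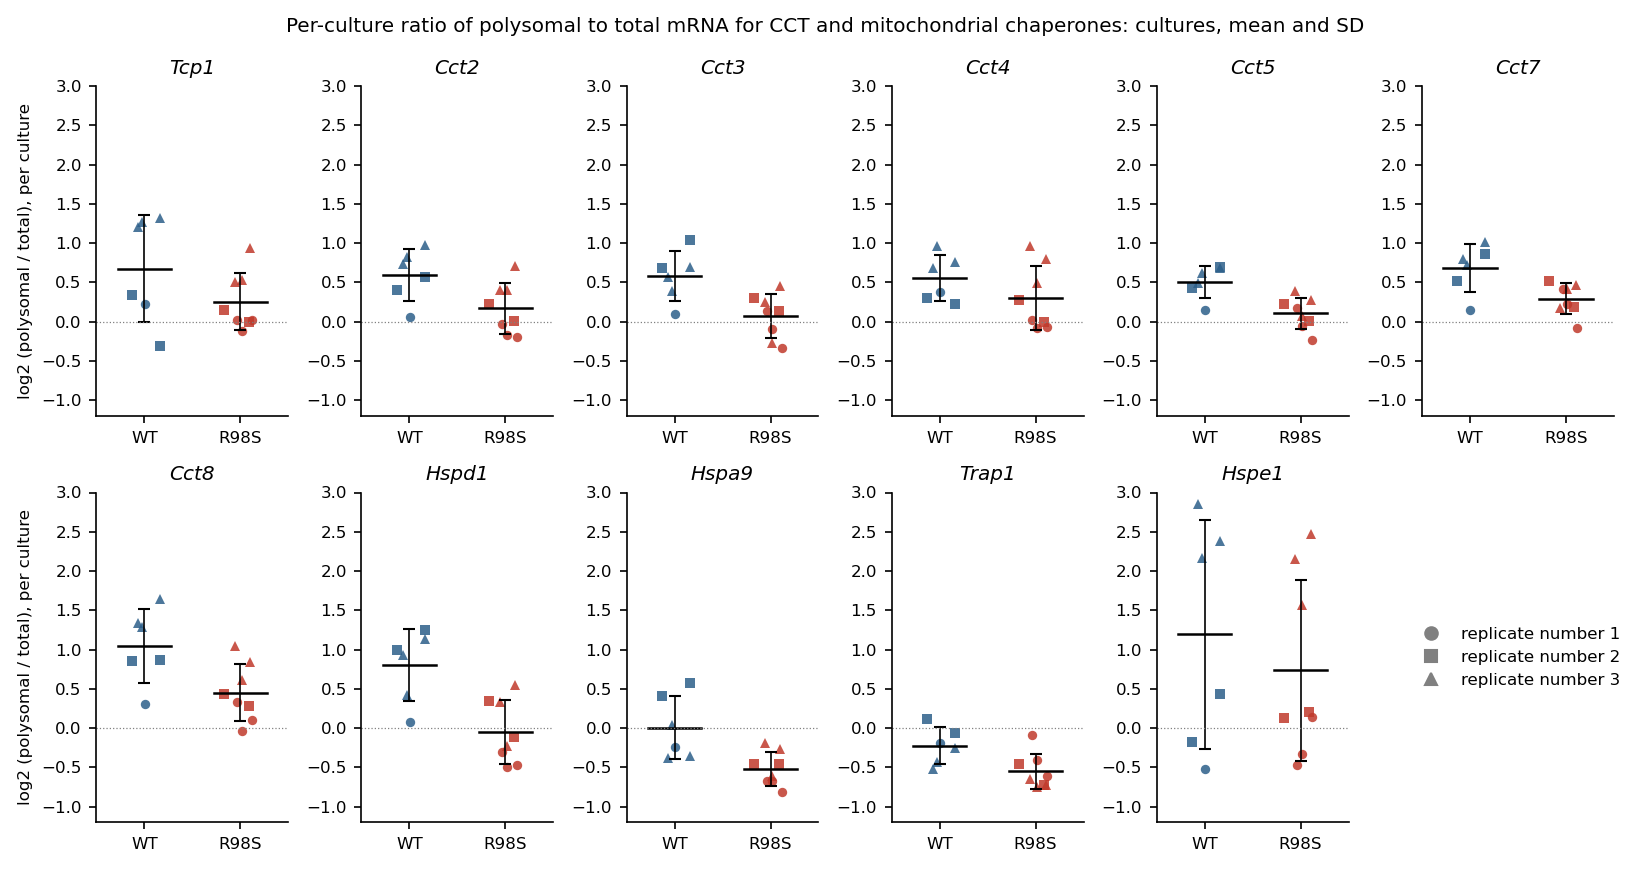
Log2 ratio of polysomal to total mRNA per culture (y axis) for the 7 CCT and 4 mitochondrial members in WT and R98S, with the mean (line), SD (bar) and replicate number (symbol). R98S means lie below WT means in all 11 panels with overlapping cultures, and Hspe1 reaches 1.57 or more only in cultures with number 3.

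Replicate number went with large differences in many chaperone mRNAs. In total mRNA 19 of the 41 members differed by number with genotype in the model (46.3%, against 43.5% of all genes), and in polysomal RNA 22 did (53.7%, against 64.9%). The count in total mRNA fell to 9 without WT clone 28 and to 7 without WT clone 29. Hspe1 in polysomal RNA had 1913 to 3618 normalized counts in the 8 libraries of numbers 1 and 2 and 10506 to 19189 in the 6 libraries of number 3 (adjusted p = 5.2e-08), while its total mRNA was 1463 to 3552 and 2060 to 4312. A further 5 members were separated in the same way in polysomal RNA, so that 6 of the 41 were, against 32.3% of all genes. The BiP partner Sdf2l1 rose from 447 to 733 under numbers 1 and 2 to 1251 to 1686 under number 3, the secreted factor Manf from 1362 to 2430 to 3353 to 7105, Dnaja1 from 1884 to 2708 to 3534 to 6132 and Tcp1 from 5036 to 9462 to 9483 to 16816. Hyou1, the ER HSP110, fell from 817 to 2173 to 377 to 775. In total mRNA 16 of the 19 members called were lower in number 3 than in the mean of numbers 1 and 2, among them all 9 ER members called, while 2497 of the 4843 genes called were lower. Being below that mean is not a fall from each number. Dnajb11 had means of 1662, 1123 and 1147 under numbers 1, 2 and 3, and Edem1 had 1678, 2150 and 1782. The means of the other ER members called were lowest under number 3. In polysomal RNA 16 of the 22 members were higher in number 3 and 6 lower, and of the 6945 genes called 3430 were higher and 3515 lower. In total mRNA, P4hb had the smallest adjusted p of the members, with means of 15034, 31418 and 11824 under numbers 1, 2 and 3 (adjusted p = 6.2e-04). The means of Hspa5 were 8838, 7142 and 5409 (adjusted p = 0.0324). Libraries of both genes overlapped. Hspa5 had 3459 to 9033 under number 3 and 6253 to 11528 under numbers 1 and 2. Its number 3 libraries of R98S clone 13 (8511) and WT clone 36 (9033) lay within the latter range. The labels do not say what a replicate number stands for.

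**Figure D4:**
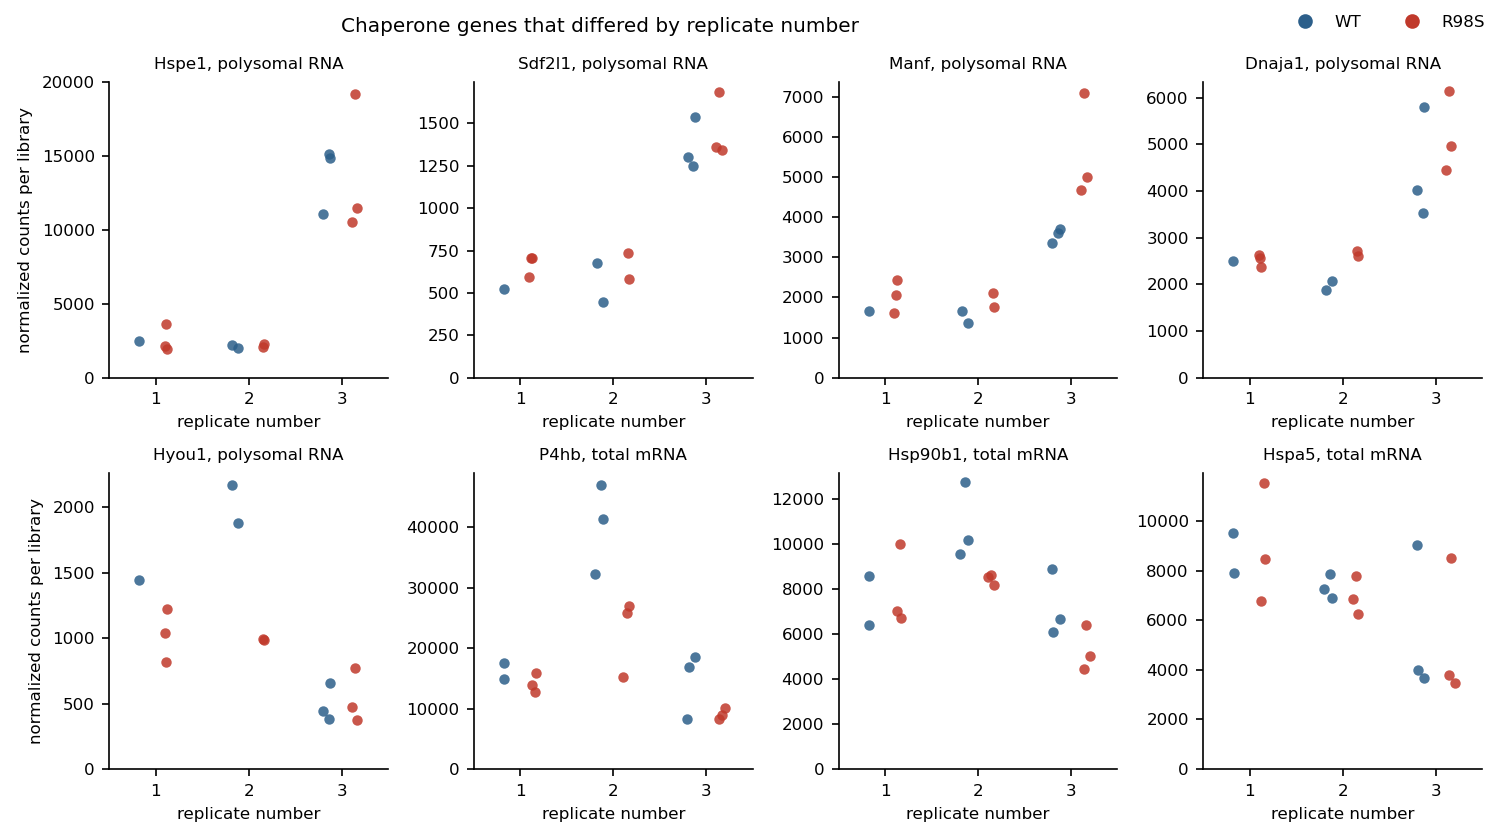
Normalized counts per library (y axis) by replicate number (x axis) for 8 chaperone genes, with WT in blue and R98S in red. In each panel the mean of number 3 lies on the same side of the means of numbers 1 and 2 in WT and in R98S. Numbers 1 and 2 do not differ in the same direction in every panel. Polysomal Hspe1 is at least 10506 in each library of number 3 and at most 3618 in the others.

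Further genes of the same pathways were read from lists of co-chaperones, CCT cofactors, mitochondrial quality control, ER stress sensors, ER folding and ER-associated degradation. Of 35 further co-chaperones tested in total mRNA, 6 rose and 3 fell (25.7%, against the 30.3% of all genes given above), and of 34 in polysomal RNA 2 rose and 2 fell (11.8%, against 13.5%). With the replicate number as a block, 7 rose and 5 fell in total mRNA, and 4 rose and 8 fell in polysomal RNA. The block called 38.4% of all genes in total mRNA and 30.9% in polysomal RNA. Hspa2, an HSP70 known from testis, was higher by 1.38 ± 0.21 in total mRNA (adjusted p = 1.4e-04) and by 1.52 ± 0.18 in polysomal RNA (adjusted p = 3.4e-05), more than any member. Bag1, a nucleotide exchange factor of HSP70, was higher by 0.54 ± 0.12 and 0.61 ± 0.16 (adjusted p = 0.00297 and 0.0203), and Dnajb4 was lower by a log2 fold change of -0.89 ± 0.17 and -0.74 ± 0.21 (adjusted p = 8.9e-04 and 0.0381). Ppid, an HSP90-bound cyclophilin, was lower in polysomal RNA (-1.31 ± 0.23, adjusted p = 0.00137), and its TE difference of -0.98 ± 0.27 was called only with the block (adjusted p = 0.441; 0.0401 with the block). Among 9 prefoldin and CCT cofactor genes tested, 3 rose and 1 fell in total mRNA (44.4%, against 30.3% of all genes). In polysomal RNA 1 of these 9 rose (11.1%, against 13.5%). Pdcl, a phosducin-like CCT cofactor, was higher in both fractions (0.64 ± 0.20 and 1.04 ± 0.18, adjusted p = 0.0296 and 0.00124). With the block, 3 of these genes rose and 1 fell in total mRNA, and 3 rose and 0 fell in polysomal RNA.

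Of 14 mitochondrial quality control genes, 1 rose and 4 fell in total mRNA (35.7%, against 30.3% of all genes), and 0 rose and 3 fell in polysomal RNA (21.4%, against 13.5%). With the block, 1 rose and 7 fell in total mRNA (all genes 38.4% called), and 0 rose and 7 fell in polysomal RNA (all genes 30.9%). The matrix protease gene Lonp1 fell by 0.90 ± 0.20 and by 0.63 ± 0.21 on the log2 scale (adjusted p = 0.00375 and 0.0808), and Timm44, which tethers HSPA9 to the import channel, fell by 0.35 ± 0.10 and 0.62 ± 0.16 (adjusted p = 0.0144 and 0.0218). The gene that rose in total mRNA was Dnlz (0.68 ± 0.19, adjusted p = 0.0142), an HSPA9 escort protein gene. Of 12 sensors and effectors of the ER stress response tested, 1 rose and 2 fell in each fraction (25%, against 30.3% and 13.5% of all genes). The block gave 1 higher and 4 lower in total mRNA, and 1 higher and 5 lower in polysomal RNA. Trib3, a target of ATF4 and CHOP, fell by 1.49 ± 0.48 and 1.14 ± 0.18 (adjusted p = 0.0322 and 6.7e-04), Mbtps2, the site-2 protease that releases ATF6 and that shares 28.4% of its exons with Yy2 on the same strand, fell by 0.65 ± 0.20 and 0.81 ± 0.26 (adjusted p = 0.0241 and 0.0628), and Creb3 rose by 0.76 ± 0.13 and 0.78 ± 0.14 (adjusted p = 4.9e-04 and 0.0015). Ddit3, encoding CHOP, was at -0.66 ± 0.31 in total mRNA (adjusted p = 0.139). Of 22 ER-associated degradation genes tested, 5 rose and 1 fell in total mRNA (27.3%, against 30.3% of all genes). In polysomal RNA 1 of these 22 rose (4.55%, against 13.5%). The block gave 5 higher and 2 lower in total mRNA, and 4 higher and 1 lower in polysomal RNA. Vcp, the ATPase that pulls proteins out of the ER, was higher by 0.59 ± 0.13 in total mRNA (adjusted p = 0.00314), and Ubxn4, its membrane adaptor, by 0.50 ± 0.09 and 0.52 ± 0.14 (adjusted p = 6.8e-04 and 0.0286). Other ER folding genes gave 1 higher and 4 lower of 23 in total mRNA (21.7%, against 30.3% of all genes). In polysomal RNA they gave 1 lower of 22 (4.55%, against 13.5%). Erp44, a chaperone of the early secretory pathway, was higher in total mRNA (0.38 ± 0.09, adjusted p = 0.00389). Dnajc10 was lower in both fractions (-0.45 ± 0.11 and -0.45 ± 0.13, adjusted p = 0.00869 and 0.046). With the block, 2 ER folding genes were higher and 4 lower in each fraction.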

How the data were processed

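Groups, clones and replicate numbers came from the sample labels. The members and lists were chosen with earlier results of these data known. According to the methods of the study, libraries were made with a stranded poly(A) kit, rRNA and tRNA reads were removed with Bowtie2, and the rest were aligned to mm10 with TopHat2 (version 2.0.11 in the submitters' processing notes) and counted on exons, with HTSeq among the tools named. The deposited signal is a normalized count, which the authors made by dividing reads by DESeq2 size factors within each table, so levels across tables are relative. Values were whole multiples of a step per library (100% within 0.001 reads), which gave back the reads. In 2 total mRNA libraries (the number 1 culture of R98S clone 13, the number 2 culture of WT clone 36) the size factor was so close to 1 that this step is hard to tell from rounding, and their reads were used in edgeR and DESeq2 all the same. The study set aside the number 1 total mRNA library of WT clone 36, which clustered with R98S, and it was not analysed here.

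R98S and WT were compared with limma 3.58.1 (R 4.3.3, trend) on log2(value + 1) where the mean normalized value reached 10, two-sided, with Benjamini-Hochberg adjustment over all genes tested and a call at an adjusted p under 0.1. Fold changes on this scale understate low genes. TE used the 14 matched cultures; 3 total mRNA libraries had no partner. Replicate number was tested by a moderated F test with genotype in the model. Alternatives used edgeR 4.0.16 and DESeq2 1.42.0 on recovered reads, other pseudocounts, filters and scalings, clone terms and left-out libraries, and single-library omissions were added after seeing the data. The functions were tested on simulated data. P-values rest on libraries of 3 clones per genotype and measure the spread between libraries. Same-numbered libraries of the genotypes deviated together (r of 0.481 to 0.62 in total mRNA, 0.666 to 0.867 in polysomal RNA and 0.538 to 0.812 in TE). Block results are therefore given where they change the call of a member or the counts of a further list. By chi-square per gene, the closest libraries were the polysomal ones of R98S clone 13 with numbers 1 and 2 (4.36). The next closest pair was at 9.6, and the closest total mRNA pair at 20.7. Whether the polysomal libraries of clone 13 with numbers 1 and 2 stem from separate cultures was not tested. All libraries were kept apart, so both count as R98S libraries and enter TE as separate cultures. Leaving out either of them gave 5 members called in polysomal RNA and 0 in TE. Named in full are the called members, a fixed set of stress markers, and at most 4 genes per further list with the smallest adjusted p. Positions and transcript lengths came from GENCODE M21, and promoters from RefSeq. A further marker gene of the lymphoid list is not reported here and was left out of its sum.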

Additional observations from a re-analysis of the deposited data

Results flagged for a closer look

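Libraries far from the rest of their group were sought in 246 groups of values, 1 for each member, fraction or ratio, and genotype, by the gap to the next library relative to the range (Dixon's test). Chance gives about 1 in 20, or 12.3, and 12 were found.

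The polysomal library of R98S clone 13 with number 3 was the highest of its group for Hsp90aa1 (35299 normalized counts, next 16933), Hspa4 (7228, next 4103), Hsph1 (1675, next 916), Cct4 (15697, next 7966), Hspd1 (13391, next 8313) and Dnajb11 (3052, next 2120). Its culture was also the highest in the log2 ratio of polysomal to total mRNA for Hsph1 (0.00, next -0.69) and Hsp90b1 (0.05, next -0.29), and its total mRNA library was the highest for Sdf2l1 (1009, next 706). The other values were the polysomal library of WT clone 29 with number 3, lowest for Hsp90aa1 (6608, next 12518), that of WT clone 28 with number 2, lowest for Hspa8 (189, next 544), and the total mRNA library of R98S clone 11 with number 2, highest for Hsph1 (2123, next 1670).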

How the results depend on the processing

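No member changed its direction with a call under any alternative. In total mRNA, where 5 members were called, DESeq2 gave 8, the replicate block 12, clone means 9, clone as a random effect 8, and the fit without WT clone 29 of number 1 gave 9. Within replicate numbers 1, 2 and 3 alone 3, 0 and 2 were called, with few libraries each. Leaving out a replicate number, a clone or a library gave 1 to 9 members, with 1 without number 3 and 9 without the library of WT clone 29 with number 1 or of WT clone 36 with number 3. In polysomal RNA, where 6 were called, no filter gave 3, DESeq2 10, the replicate block 19, clone means 2, the fit without R98S clones 13 and 35 of number 2 gave 2, and number 2 alone 0. Omissions gave 1 (without number 1) to 16 (without number 3). In TE, with 0 called, DESeq2 gave 1, clone as a random effect 2 and the fit without WT clone 29 of number 1 gave 2; omissions gave 0 to 2, and the replicate block 0. By replicate number, total mRNA gave 1 in R98S libraries alone and 7 in WT libraries alone, beside 19, and polysomal RNA gave 12 in R98S libraries alone, beside 22; omissions gave 7 to 23 in total mRNA and 18 to 24 in polysomal RNA. The causes were not tested. Counts at 0 to 5 reads limit Hspa1a, Hspa1b, Hspb1 and Bag3.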
